A study of Mus musculus with 7 samples.

Results

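Mouse embryonic fibroblasts (MEFs) given the transcription factors Gata4 and Tbx5 with isoform 2 of Mef2c (GT/M2) were compared with fibroblasts given the same factors with isoform 1 (GT/M1) or isoform 6 (GT/M6). All 3 cultures carried retroviral Gata4 and Tbx5, had their medium replaced 24 h after infection and were harvested after 1 week. RNA with an integrity number above 7 was labelled from 100 ng and read on an Affymetrix Clariom S mouse array. The array measures transcripts of annotated genes as log2 signals, so that a difference of 1 is 2-fold. The comparison uses 3 of the 7 arrays of the series, with 1 array in each group. The other 4 arrays enter no count: isoform 2 fused to MyoD's activating domain (GT/M2TAD), cells with siRNA against Ep300 (siEp300) or control siRNA (siCtrl), and MEFs without transduction. The titles and source names of both siRNA arrays name different forms of Mef2c, so only their siRNA is used here.

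A gene was counted when its signal on the GT/M2 array lay at least 2-fold away from GT/M1 and from GT/M6 in the same direction. In each pair the higher signal also had to reach that array's median over all named genes. A call of higher thus needed GT/M2 at its median, while a call of lower needed both GT/M1 and GT/M6 at theirs. By this rule 372 of 19505 named genes differed, of which 211 were higher (1.08% of all genes) and 161 lower (0.825%) on GT/M2 than on both. Each list count below is to be read against these shares over all genes, also where they are not repeated. Only the 10168 genes that reached that median, the floor, on an array could be called. A list with many such genes can exceed the shares over all genes in part for that reason. There were no replicate arrays, so no spread between replicates, no test and no p-value can be given. GT/M1 and GT/M6 are different constructs and not replicates of each other. The labels give the isoforms by number and do not state how their sequences differ.

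Mef2 proteins bind an A and T rich DNA element through their MADS and Mef2 domains, and switch on muscle genes in heart, skeletal and smooth muscle. Mef2c makes several proteins by alternative splicing. When fibroblasts receive it along with Gata4 and Tbx5, it can start a cardiac program while fibroblast genes are turned down, a process known as direct cardiac reprogramming.

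The promoters of a few called genes are shown because their letters belong to the gene groups described below. They come from RefSeq (GRCm38.p6), and are written 5′ to 3′ on the gene's strand. A promoter was matched for 15691 named genes, 165 of them called higher and 127 called lower. It spans 250 bases before the start and 50 after it, and the first listed start was taken for the 2564 genes with several. Capitals mark the searched motif: the Mef2 element in Myoz2 and Synpo2l, the interferon response core GAAANNGAA (here on the opposite strand) in Ifit3 and Ifit3b, and in Prc1 the CCAAT box followed by TTTGAA, the core of the cell cycle homology region.
Myoz2, chr3:123034996-123035035, minus strand: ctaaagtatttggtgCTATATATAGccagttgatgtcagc
Synpo2l, chr14:20668439-20668478, minus strand: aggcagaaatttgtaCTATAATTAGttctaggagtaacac
Ifit3, chr19:34583359-34583450, plus strand: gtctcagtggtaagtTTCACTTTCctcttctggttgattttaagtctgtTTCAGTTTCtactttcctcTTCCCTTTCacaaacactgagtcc
Ifit3b, chr19:34607755-34607846, plus strand: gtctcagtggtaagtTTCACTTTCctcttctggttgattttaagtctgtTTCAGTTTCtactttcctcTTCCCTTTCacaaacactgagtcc
Prc1, chr7:80294399-80294466, plus strand: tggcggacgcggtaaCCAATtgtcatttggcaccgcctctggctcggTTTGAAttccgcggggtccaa

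The Mef2 element began 33 bases before the start of Myoz2 and 109 bases before that of Synpo2l. Over all named genes with a promoter, 2.79% held the Mef2 element on either strand. It lay in 8 of 165 promoters of genes higher on GT/M2 (4.85%) and in 5 of 127 of genes lower on GT/M2 (3.94%). Among the Z-disc genes 6 of 25 promoters (24%) held it, but that of Csrp3, a called Z-disc gene, did not in this window. The CArG box, the element of serum response factor, lay in 5 of the same 25 (20%), against 1.49% of all promoters. The stretches shown for Ifit3 and Ifit3b are letter for letter alike and hold 3 matches each. A match is a description of the sequence and not evidence of binding.

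The transduced factors had like signals on the arrays compared. Mef2c had 18.82 on GT/M2, 18.50 on GT/M1 and 18.69 on GT/M6, against 8.24 in MEFs. Tbx5 had 16.23 on GT/M2, 16.19 on GT/M1 and 16.22 on GT/M6, against 5.72 in MEFs. Gata4 stayed low, at 4.39 on GT/M2, 5.09 on GT/M1 and 4.63 on GT/M6, close to the 4.22 of MEFs. Whether its probe set reads the transduced sequence was not tested. Myod1, the skeletal muscle factor, was at 3.23 on GT/M2, 2.94 on GT/M1 and 2.97 on GT/M6.

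The deposited signals, already processed by the authors, were alike in general level but not in the negative-control probes. How far the processing itself set the like level was not tested. Median signals over named genes were 5.70 on GT/M2, 5.68 on GT/M1 and 5.71 on GT/M6, and the median difference of GT/M2 from the mean of the others was 0.015. The negative-control probes, so named in their identifiers, had medians of 5.09 on GT/M2, 5.37 on GT/M1 and 5.24 on GT/M6. What they match is not given in the sources used here. Their 95th percentile was 8.82 on GT/M2, 9.33 on GT/M1 and 9.14 on GT/M6, and a signal past it is called above control here. Of 2705 negative-control probes that reached the floor, 12.8% were called (112 higher, 233 lower), against 3.66% of the 10168 named genes that reached it. Of the 365 control probes past the control percentile on an array 20% were called, against 3.70% of the 5619 genes above control. These control probes were picked by the same signals that the rule reads. The genes above control were picked in the same way, so neither share tells how firm a call above control is. Of the called genes 114 of 211 higher and 94 of 161 lower were above control on an array.

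**Figure D1:**
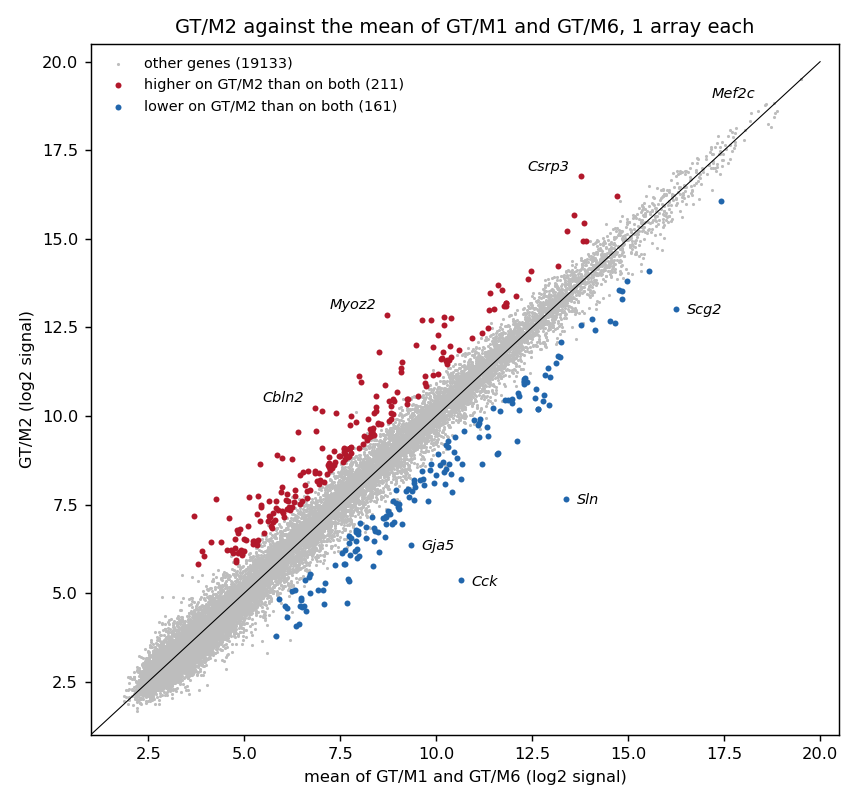
Log2 signal of each named gene on the GT/M2 array (vertical axis) against the mean of GT/M1 and GT/M6 (horizontal axis), with 1 array each and the line of equal signal. Red points are the 211 genes higher and blue points the 161 genes lower than on both arrays; Sln and Cck lie farthest below the line, Myoz2 farthest above it, and Mef2c lies close to it.

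GT/M1 and GT/M6 lay within 2-fold of each other for 201 of the 211 genes higher and 154 of the 161 genes lower on GT/M2. Of all genes 98.2% did. The median difference from their mean was 1.43 for the genes higher and -1.57 for the genes lower, and 44 and 33 genes were at least 4-fold away. Against GT/M1 alone GT/M2 had 370 genes 2-fold higher (1.9%) and 271 lower (1.39%). Against GT/M6 alone it had 334 genes higher (1.71%) and 360 lower (1.85%). These pairs share the GT/M2 array.

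The balance of higher and lower genes depends on the scaling. As deposited, 56.7% of the called genes were higher (211 against 161 lower). With each difference centred along the range of signal, 46.3% were higher (173 against 201), and 172 of those 173 were among the 211. With quantile normalization 47.5% were higher (174 against 192).

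At the threshold, Ube2c and Eif3h were just inside on the high side, each with a smaller difference of 1.00. Slc27a1 and Raph1 were just inside on the low side, each by little more than 1 against the nearer comparator. Just outside were Cdca3 and Diras2 at 0.99, and Id1 and Ch25h at -0.99. The list of 372 thus has no gap at its border.

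The Z-disc anchors the thin filaments of neighbouring sarcomeres. Of 34 measured Z-disc and costamere genes, 3 were higher on GT/M2 (8.82%, against 1.08% of all genes) and 0 lower. The floor was reached by 25 of the 34, against 10168 of 19505 genes. The median of the list was 0.18 against GT/M1 and -0.05 against GT/M6. In bulk RNA, more cells of a type and more RNA per cell cannot be told apart, here or below.

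Myoz2, the calsarcin of slow and cardiac muscle that binds calcineurin, had 12.86 on GT/M2, 7.68 on GT/M1 and 9.75 on GT/M6, against 4.08 in MEFs. It was 4.14 above the mean of the other isoforms, the largest positive difference of any called gene, and its GT/M1 signal was not above control. Csrp3, the muscle LIM protein, had 16.76 on GT/M2, 12.75 on GT/M1 and 14.78 on GT/M6, a difference of 3.0. Synpo2l, an actin-bundling Z-disc protein, had 12.70 on GT/M2, 9.50 on GT/M1 and 10.21 on GT/M6, a difference of 2.84. That GT/M2 was highest follows from the rule. For Myoz2 and Csrp3, GT/M6 lay about 2 log2 units above GT/M1.

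The same genes had high signals on arrays other than GT/M2. Myoz2 was at 11.65 on GT/M2TAD, 11.75 on siEp300 and 11.74 on siCtrl. Csrp3 was at 16.46 on GT/M2TAD, 14.85 on siEp300 and 14.47 on siCtrl. Synpo2l was higher there than on GT/M2, at 15.12 on GT/M2TAD, 15.33 on siEp300 and 16.38 on siCtrl.

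Among 30 genes of the thick filament, M-band and titin, 1 was higher and 1 lower on GT/M2 (3.33% each). Myl1, an essential myosin light chain of fast skeletal muscle, had 10.13 on GT/M2, 6.77 on GT/M1 and 7.29 on GT/M6. It was 6.85 in MEFs, so that of these 4 arrays it was above control on GT/M2 alone. Myom2, an M-band protein, had 10.97 on GT/M2, 12.09 on GT/M1 and 12.51 on GT/M6, a difference of -1.33. The list median was 0.18 against GT/M1 and -0.25 against GT/M6.

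Among 23 thin filament genes the called ones were the leiomodins, which lengthen actin filaments. Lmod2 had 8.79 on GT/M2, 6.63 on GT/M1 and 5.83 on GT/M6, and Lmod3 had 6.21 on GT/M2, 4.02 on GT/M1 and 5.08 on GT/M6. Neither was above control on these 3 arrays, and the list median was -0.12. The mean of the list was 0.03.

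Most cardiomyocyte markers were above control in all 3 cultures, with 8 of 10 on GT/M2, 7 on GT/M1 and 8 on GT/M6, against 1 in MEFs. The mean signal of 10 such markers was 12.42 on GT/M2, 12.44 on GT/M1 and 12.84 on GT/M6, against 5.67 in MEFs, and 0 of 10 were called. Tnnt2, cardiac troponin T, had 16.83 on GT/M2, 17.40 on GT/M1 and 17.38 on GT/M6. Myl7, the atrial regulatory light chain, had 15.50 on GT/M2, 16.03 on GT/M1 and 16.18 on GT/M6. Both were picked from the markers after their values were seen and do not stand for all 10. Both lay below GT/M1, while the mean of the 10 was nearly the same on GT/M2 and GT/M1. The median difference of the 10 from the mean of the other isoforms was -0.29. The fibroblast markers averaged 11.71 on GT/M2, 12.32 on GT/M1 and 12.70 on GT/M6, against 13.30 in MEFs, with 0 of 10 higher and 2 lower on GT/M2.

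**Figure D2:**
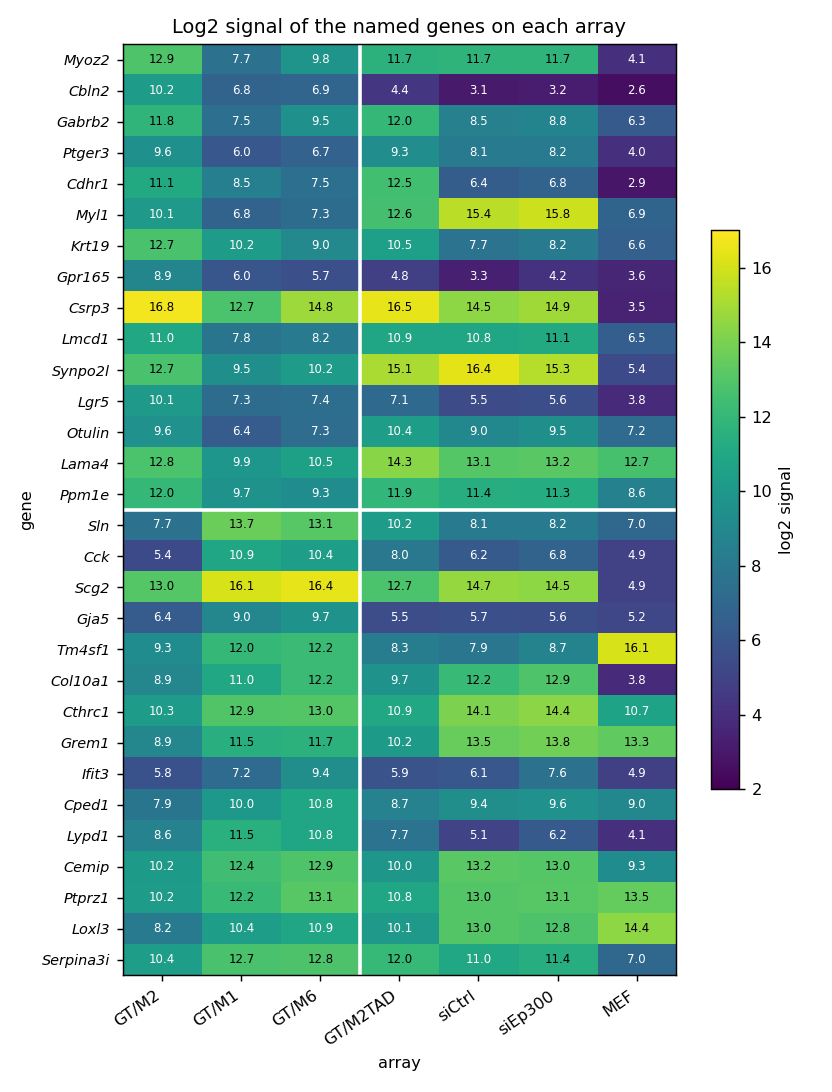
Log2 signal (colour and printed number) of the 15 genes most above and the 15 most below the mean of GT/M1 and GT/M6 on the GT/M2 array, on each of the 7 arrays. The white lines separate the genes higher from the genes lower on GT/M2, and the arrays compared from the others; Myl1 and Synpo2l are brighter on both siRNA arrays than on GT/M2, while Cbln2 and Lgr5 are brightest on GT/M2.

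Of 21 measured genes of atrial muscle, 4 were lower on GT/M2 (19.0%, against 0.825% of all genes) and 0 higher. The floor was reached by 17 of the 21, against 10168 of 19505 genes. Of the 21, 7 had a positive difference from the mean of the other isoforms, and the list median was -0.46 against GT/M1 and -0.51 against GT/M6. Sln, sarcolipin, which inhibits the calcium pump of the sarcoplasmic reticulum in atrial and skeletal muscle, had 7.67 on GT/M2, 13.65 on GT/M1 and 13.09 on GT/M6. Its difference of -5.70 was the largest of any called gene, and the GT/M2 signal lay close to the 7.00 of MEFs and was not above control. GT/M2TAD had 10.24, between GT/M2 and the other isoforms. Gja5, the atrial and conduction connexin 40, had 6.36 on GT/M2, 8.97 on GT/M1 and 9.70 on GT/M6, and only the GT/M6 signal was above control.

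The remaining called atrial genes differed less. Dkk3, a secreted Dickkopf family protein, had 9.76 on GT/M2, 10.90 on GT/M1 and 11.29 on GT/M6. Adm, the vasodilator adrenomedullin, had 6.96 on GT/M2, 8.97 on GT/M1 and 8.43 on GT/M6, below the control percentile on all 3. With the floor raised to that percentile the atrial count was 2. The 18 ventricular genes had 1 called, Hspb7, a small heat shock protein of heart muscle, with 14.94 on GT/M2, 13.79 on GT/M1 and 13.84 on GT/M6, and their median was 0.04.

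Sln was the only call among 20 genes of sarcoplasmic reticulum calcium handling, whose median was -0.12. Among 31 ion channels and exchangers, GT/M2 was higher for 3 (9.68%) and lower for 1 (3.23%). Kcnh2, a delayed rectifier potassium channel, was above control, with 10.48 on GT/M2, 9.46 on GT/M1 and 9.07 on GT/M6. Its call was lost with quantile normalization and with centring along the signal range.

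The other channel calls rested on signals that were not above control. Hcn4, the pacemaker channel, had 8.38 on GT/M2, 6.73 on GT/M1 and 7.18 on GT/M6. Kcnip2, an auxiliary subunit of potassium channels, had 6.54 on GT/M2, 5.01 on GT/M1 and 4.98 on GT/M6. Slc8a1, the sodium and calcium exchanger, had 6.71 on GT/M2, 8.07 on GT/M1 and 7.77 on GT/M6.

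Of 20 conduction system genes, Hcn4 was the 1 called higher (5%) and 2 were lower on GT/M2 (10%). Tbx18, a T-box factor of the sinus node and epicardium, had 8.61 on GT/M2, 9.98 on GT/M1 and 10.21 on GT/M6. Popdc2, a membrane protein that binds cyclic AMP, had 8.43 on GT/M2, 9.76 on GT/M1 and 10.63 on GT/M6. Tbx18 was also the only call among 30 cardiac transcription factors, whose median was -0.02. Of 22 genes of connexins and the intercalated disc, 2 were higher and 2 lower on GT/M2 (9.09% each). Pkp2, a desmosomal plakophilin, had 9.32 on GT/M2 and 8.19 on both GT/M1 and GT/M6. Popdc3, a relative of Popdc2, had 11.81 on GT/M2, 10.31 on GT/M1 and 10.04 on GT/M6, so these related genes went opposite ways.

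Of 32 genes for secreted hormones and peptides, 5 were lower on GT/M2 (15.6%, against 0.825% of all genes) and 0 higher. The floor was reached by 16 of the 32. Cck, the peptide cholecystokinin, had 5.36 on GT/M2, 10.90 on GT/M1 and 10.39 on GT/M6, a difference of -5.29, with the GT/M2 signal near the 4.93 of MEFs. Scg2, a granin of secretory granules, stayed above control on all 3 arrays, with 13.03 on GT/M2, 16.07 on GT/M1 and 16.44 on GT/M6. Corin, the protease that activates atrial natriuretic peptide, had 10.48 on GT/M2, 12.00 on GT/M1 and 11.97 on GT/M6, against 6.03 on GT/M2TAD and 4.04 in MEFs. Adm and Grem1 made up the 5. The list median was -0.06, and 15 of 32 genes (46.9%) lay below both comparators, against 34.8% of all genes.

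Several genes with the largest positive differences were in none of the muscle lists. Cbln2, a cerebellin that organises synapses, had 10.23 on GT/M2, 6.79 on GT/M1 and 6.90 on GT/M6. It was only 4.37 on GT/M2TAD, 3.15 on siEp300, 3.08 on siCtrl and 2.59 in MEFs, so that GT/M2 alone was above control. Krt19, a keratin of simple epithelia, had 12.70 on GT/M2, 10.22 on GT/M1 and 9.05 on GT/M6, and was the only call among 24 epithelial and mesothelial genes. The median of that list was -0.01. Lgr5, a receptor for R-spondins, had 10.09 on GT/M2, 7.33 on GT/M1 and 7.43 on GT/M6.

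Receptors and adhesion molecules were also among them. Gabrb2, a subunit of the GABA-A receptor, had 11.81 on GT/M2, 7.49 on GT/M1 and 9.52 on GT/M6. Ptger3, a prostaglandin E2 receptor, had 9.55 on GT/M2, 6.04 on GT/M1 and 6.74 on GT/M6. Cdhr1, a photoreceptor cadherin, had 11.13 on GT/M2, 8.46 on GT/M1 and 7.50 on GT/M6. For Ptger3 and Cdhr1 neither comparator was above control. The same held for Myl1, Cbln2 and Lgr5, given above, and for Gpr165, Lmcd1 and Otulin, given below. The part of background in the size of these differences was not tested. Gpr165, an orphan receptor, had 8.89 on GT/M2, 6.04 on GT/M1 and 5.68 on GT/M6. Gabrb2, Ptger3 and Cdhr1 had 11.97, 9.34 and 12.48 on GT/M2TAD, near or above their GT/M2 signals.

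The last of the 15 most positive genes were Lmcd1, Otulin, Lama4 and Ppm1e. Lmcd1, a LIM domain cofactor that binds Gata6, had 10.97 on GT/M2, 7.83 on GT/M1 and 8.23 on GT/M6. Otulin, which removes linear ubiquitin chains, had 9.56 on GT/M2, 6.38 on GT/M1 and 7.35 on GT/M6. Lama4, a laminin chain, had 12.78 on GT/M2, 9.87 on GT/M1 and 10.52 on GT/M6. It was already at 12.65 in MEFs, so for Lama4 the GT/M1 and GT/M6 arrays stood apart and not GT/M2. Ppm1e, a protein phosphatase, had 12.00 on GT/M2, 9.68 on GT/M1 and 9.28 on GT/M6.

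Of 48 matricellular, proteoglycan and elastic fibre genes, 8 were lower on GT/M2 (16.7%, against 0.825% of all genes) and 0 higher. The floor was reached by 39 of the 48, against 10168 of 19505 genes. By any amount 33 of 48 (68.8%) lay below both comparators, against 34.8% of all genes. The list median was -0.25 against GT/M1 and -0.76 against GT/M6. Tnc, tenascin C, had 12.42 on GT/M2, 14.12 on GT/M1 and 14.14 on GT/M6, against 17.79 in MEFs. Thbs2, thrombospondin 2, had 10.13 on GT/M2, 11.69 on GT/M1 and 11.64 on GT/M6, and Fbln2, fibulin 2, had 9.57 on GT/M2, 10.68 on GT/M1 and 10.76 on GT/M6. On these genes the 3 transduced arrays all lay below the MEF array. That GT/M2 was lowest follows from the rule by which they were called.

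Lysyl oxidases cross-link collagen and elastin. Loxl1 had 8.07 on GT/M2, 10.28 on GT/M1 and 10.16 on GT/M6, and Loxl3 had 8.21 on GT/M2, 10.40 on GT/M1 and 10.89 on GT/M6. MEFs had 13.51 and 14.43. The other 3 called members were Ccn3, the collagen-binding Lum and Fmod, with differences of -1.43, -1.43 and -1.95, and were below the control percentile on all 3 arrays. With the floor raised to that percentile the count was 5.

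Of 25 collagens, 2 were lower on GT/M2 (8%). Col1a2, a chain of type I collagen, had 10.50 on GT/M2, 12.12 on GT/M1 and 13.01 on GT/M6, against 15.20 in MEFs. Col5a2 had 9.69 on GT/M2, 10.85 on GT/M1 and 11.78 on GT/M6. The list median was -0.34 against GT/M1 and -0.77 against GT/M6, and GT/M6 itself lay 0.39 above GT/M1. Col10a1, the hypertrophic cartilage collagen counted with the cartilage genes, was far above its MEF signal on all 3 arrays, with 8.95 on GT/M2, 10.98 on GT/M1, 12.22 on GT/M6 and 3.85 in MEFs.

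Matrix proteases and their inhibitors had 5 of 32 genes lower on GT/M2 (15.6%, against 0.825% of all genes) and 0 higher. The floor was reached by 23 of the 32, and 25 of 32 (78.1%) lay below both comparators. Their median was -0.57 against GT/M1 and -0.59 against GT/M6. Mmp2, a gelatinase, had 9.40 on GT/M2, 10.75 on GT/M1 and 11.47 on GT/M6. Mmp14, the membrane protease that activates Mmp2, had 12.09 on GT/M2, 13.17 on GT/M1 and 13.34 on GT/M6. Plat, the tissue plasminogen activator, had 8.63 on GT/M2, 10.53 on GT/M1 and 10.13 on GT/M6. Mmp19 and Adamts4 had differences of -1.40 and -2.28 at signals that were not above control on the 3 arrays.

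Smooth muscle and myofibroblast genes differed mainly from GT/M6. The median of 26 genes was -0.14 against GT/M1 and -0.79 against GT/M6, with 1 called higher and 2 lower. Npnt, nephronectin, a ligand of integrins, had 15.21 on GT/M2, 13.69 on GT/M1 and 13.11 on GT/M6. Ano1, a chloride channel gated by calcium, had 10.16 on GT/M2, 12.64 on GT/M1 and 11.68 on GT/M6. Mcam, an adhesion molecule, had 11.07 on GT/M2, 12.17 on GT/M1 and 12.43 on GT/M6.

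Among ligands and inhibitors of Bmp and TGF-beta signalling, 1 of 40 genes was higher and 3 lower (7.5%), and the median was -0.38. Grem1, a secreted Bmp antagonist, had 8.93 on GT/M2, 11.48 on GT/M1 and 11.66 on GT/M6, against 13.34 in MEFs. Inhba, the activin A subunit, had 8.99 on GT/M2, 10.34 on GT/M1 and 10.60 on GT/M6, against 16.48 in MEFs. Fst, the activin antagonist follistatin, had 9.92 on GT/M2, 10.93 on GT/M1 and 11.33 on GT/M6. That these 3 were all lowest on GT/M2 follows from the rule by which they were called. Of the 40 genes, 12 had a positive and 28 a negative difference from the mean of the other isoforms. Gdf10 was higher by 1.99 at signals that were not above control.

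Wnt signalling genes went both ways, with 2 of 38 higher and 2 lower on GT/M2 (5.26% each) and a median of -0.08. Axin2, a feedback inhibitor and common target of Wnt signalling, had 9.74 on GT/M2, 7.59 on GT/M1 and 7.91 on GT/M6, and was at 9.90 on GT/M2TAD. Lgr5, also a Wnt target in many tissues, was given above. Dkk3 was lower, and so was Wif1, a secreted Wnt inhibitor, by 2.08 on the log2 scale at signals that were not above control. None of 18 Notch genes was called as deposited, and 1 was lower with quantile normalization.

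The remaining genes with the largest negative differences were in none of the 32 lists. Tm4sf1, a membrane protein of mesenchymal and endothelial cells, had 9.29 on GT/M2, 11.97 on GT/M1 and 12.22 on GT/M6, against 16.10 in MEFs. Cthrc1, a secreted protein of remodelling tissue, had 10.30 on GT/M2, 12.90 on GT/M1 and 12.98 on GT/M6. Cemip, which breaks down hyaluronan, had 10.20 on GT/M2, 12.43 on GT/M1 and 12.89 on GT/M6. All 3 were above control on each of these arrays. Ptprz1, a receptor phosphatase, had 10.21 on GT/M2, 12.17 on GT/M1 and 13.11 on GT/M6. Serpina3i, a serpin from a family of close paralogs, had 10.41 on GT/M2, 12.72 on GT/M1 and 12.84 on GT/M6. Lypd1 and Cped1 each had a difference of -2.56.

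**Figure D3:**
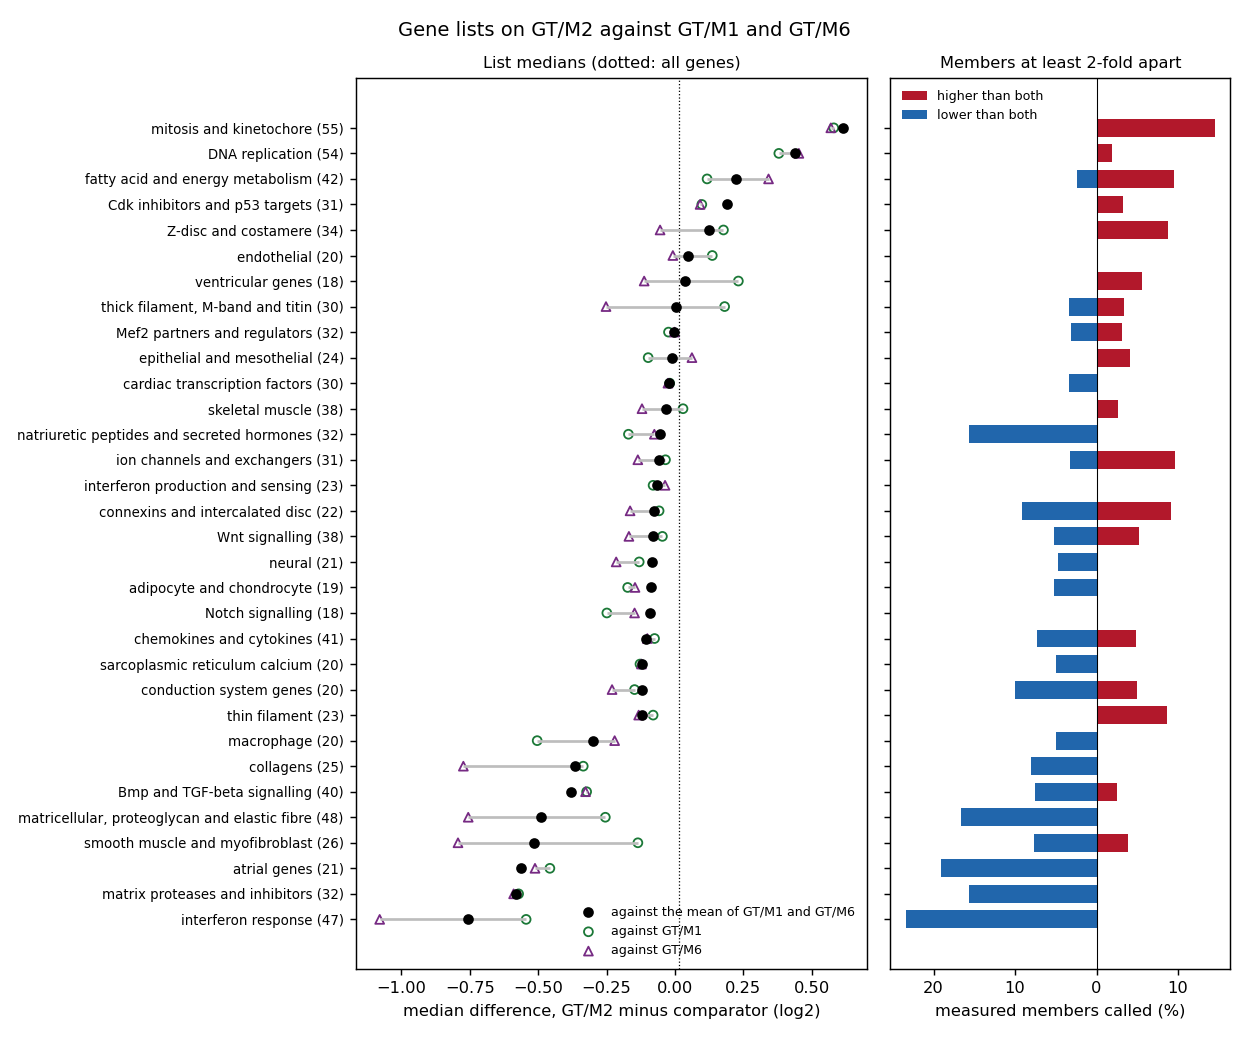
For each of 32 gene lists (measured members in brackets), the left panel shows the median log2 difference of GT/M2 from the mean of GT/M1 and GT/M6 (black), from GT/M1 (circle) and from GT/M6 (triangle), and the right panel the percent of members called. Mitosis (0.62) and DNA replication (0.44) have the highest medians and interferon response (-0.76) the lowest; for smooth muscle, collagens and matricellular genes the distance from GT/M6 exceeds that from GT/M1.

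Interferon response genes had the lowest median of the 32 lists. Of 47 measured genes, 11 were lower on GT/M2 (23.4%, against 0.825% of all genes) and 0 higher. The floor was reached by 26 of the 47, and 36 of 47 (76.6%) lay below both comparators. The median was -0.54 against GT/M1 and -1.08 against GT/M6. Signals were low: 8 of 47 genes were above control on any of the 3 arrays. With the floor raised to the control percentile 1 gene was called, Ifi27. The control probes were also lower on GT/M2, by a median of 0.23, and the part of background in the difference was not tested.

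Ifit3, an interferon-induced protein with tetratricopeptide repeats, had 5.78 on GT/M2, 7.25 on GT/M1 and 9.44 on GT/M6, against 4.85 in MEFs, and only GT/M6 was above control. Its close copy Ifit3b had 4.73 on GT/M2, 6.54 on GT/M1 and 8.82 on GT/M6, and was above control on none of them. Whether the probe sets tell these paralogs apart was not tested. For both, GT/M6 was more than 2 log2 units above GT/M1. Ifi27, a mitochondrial interferon-induced protein, had 8.19 on GT/M2, 9.59 on GT/M1 and 9.25 on GT/M6. Ddx58, the RNA sensor RIG-I, had 7.88 on GT/M2, 9.19 on GT/M1 and 9.55 on GT/M6.

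The other called members were Oasl2, Usp18, Ifih1, Ifit2, Gbp7, Mx2 and Xaf1, with differences between -2.32 and -1.20, and none was above control on the 3 arrays. Usp18, which restrains interferon signalling, had 6.48 on GT/M2, 7.93 on GT/M1 and 8.80 on GT/M6, and 10.68 on siEp300 against 9.20 on siCtrl. Genes that make or sense interferon, a separate list of 23, had 0 called as deposited and a median of -0.07. With median centring, quantile normalization or centring along the signal range 1 of them was lower. Ddx58 and Ifih1, called lower, were counted with the response genes and not in this list. As a marker check, 0 of 20 macrophage genes were above control on any of the 7 arrays. Lyz2 was the only macrophage gene called, with 6.16 on GT/M2, 8.76 on GT/M1 and 8.24 on GT/M6.

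The interferon response core shown above for Ifit3 lay in 60% of 35 promoters of the list, against 8.08% of all promoters. Of the called members with a promoter, 5 of 8 held it. Over all genes lower on GT/M2 it lay in 14.2% of promoters, and in 5.46% of those higher. The shares with the Gata core AGATAA were 9.09% for genes higher, 6.30% for genes lower and 9.90% overall. Those with the T-box core AGGTGT were 9.70%, 12.6% and 12.5%. Those with the E-box CANNTG were 64.2%, 63.8% and 68.6%, so these 3 motifs lay in called promoters at shares near or below the overall ones. The CArG box of serum response factor lay in 3.64%, 0.787% and 1.49%. Both strands were searched in 300 bases, and a stretch could count for more than 1 motif.

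Cell division genes were set beside each other in 2 lists. Of 55 genes of mitosis and the kinetochore, 8 were higher (14.5%, against 1.08% of all genes) and 0 lower. The floor was reached by 47 of the 55, against 10168 of 19505 genes. Of the 55, 48 (87.3%) lay above both comparators, against 38.6% of all genes. The median was 0.58 against GT/M1 and 0.57 against GT/M6. Of 54 DNA replication genes, 1 was called higher (1.85%, near the 1.08% of all genes), with 43 (79.6%) above both and a median of 0.38 against GT/M1 and 0.45 against GT/M6. GT/M6 and GT/M1 differed from each other by -0.07 in the median of the first list and by -0.09 in that of the second. On all 3 arrays 53 of the 55 mitosis genes and 44 of the 54 replication genes were nonetheless at least 2-fold below MEFs.

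Ube2c, the ubiquitin-conjugating enzyme of the anaphase-promoting complex, had 9.49 on GT/M2, 8.21 on GT/M1 and 8.49 on GT/M6, against 13.05 in MEFs. Ccnb2, cyclin B2, had 9.46 on GT/M2, 8.31 on GT/M1 and 8.45 on GT/M6, against 11.08 in MEFs. Nusap1, a spindle protein, had 8.86 on GT/M2, 7.71 on GT/M1 and 7.75 on GT/M6, against 10.31 in MEFs. These 3 were above control on GT/M2 and on neither comparator. The GT/M2 signals lay between the comparators and MEFs.

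The other called members were lower in signal and not above control on the 3 arrays. Bub1b, a spindle checkpoint kinase, had 8.38 on GT/M2, 7.10 on GT/M1 and 6.61 on GT/M6. Prc1, which bundles the central spindle, had 7.43 on GT/M2, 6.09 on GT/M1 and 6.23 on GT/M6. Hmmr, Ckap2l and Ttk had differences of 1.26, 1.18 and 1.15. Pola1, the catalytic subunit of DNA polymerase alpha, was the called replication gene, with 6.15 on GT/M2, 5.08 on GT/M1 and 4.66 on GT/M6.

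The mitosis calls depended on the settings more than the list median did. With the floor raised to the control percentile 3 were called, and with quantile normalization or centring along the signal range 6, without Ccnb2 and Ube2c. The median was 0.53 to 0.61 under the other scalings, against 0.62 as deposited. Cdk inhibitors and p53 targets had 1 of 31 called, Sesn1, a stress-induced sestrin, with 9.64 on GT/M2 and 8.28 on both GT/M1 and GT/M6. The median of that list was 0.19.

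In the promoters of the mitosis list, TTTGAA lay in 68.1% of 47 and the CCAAT box in 66.0%, against 15.8% and 38.8% of all promoters. Of the 8 called members, 7 held each. Many of the TTTGAA matches lay at or after the start: in the 250 bases before it the share was 31.9%, against 14.2% of all promoters. In Prc1, shown earlier, the CCAAT box began 37 bases and TTTGAA 5 bases before the start. Over all genes higher on GT/M2 the shares were 12.1% and 40.6%, close to those of all promoters.

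**Figure D4:**
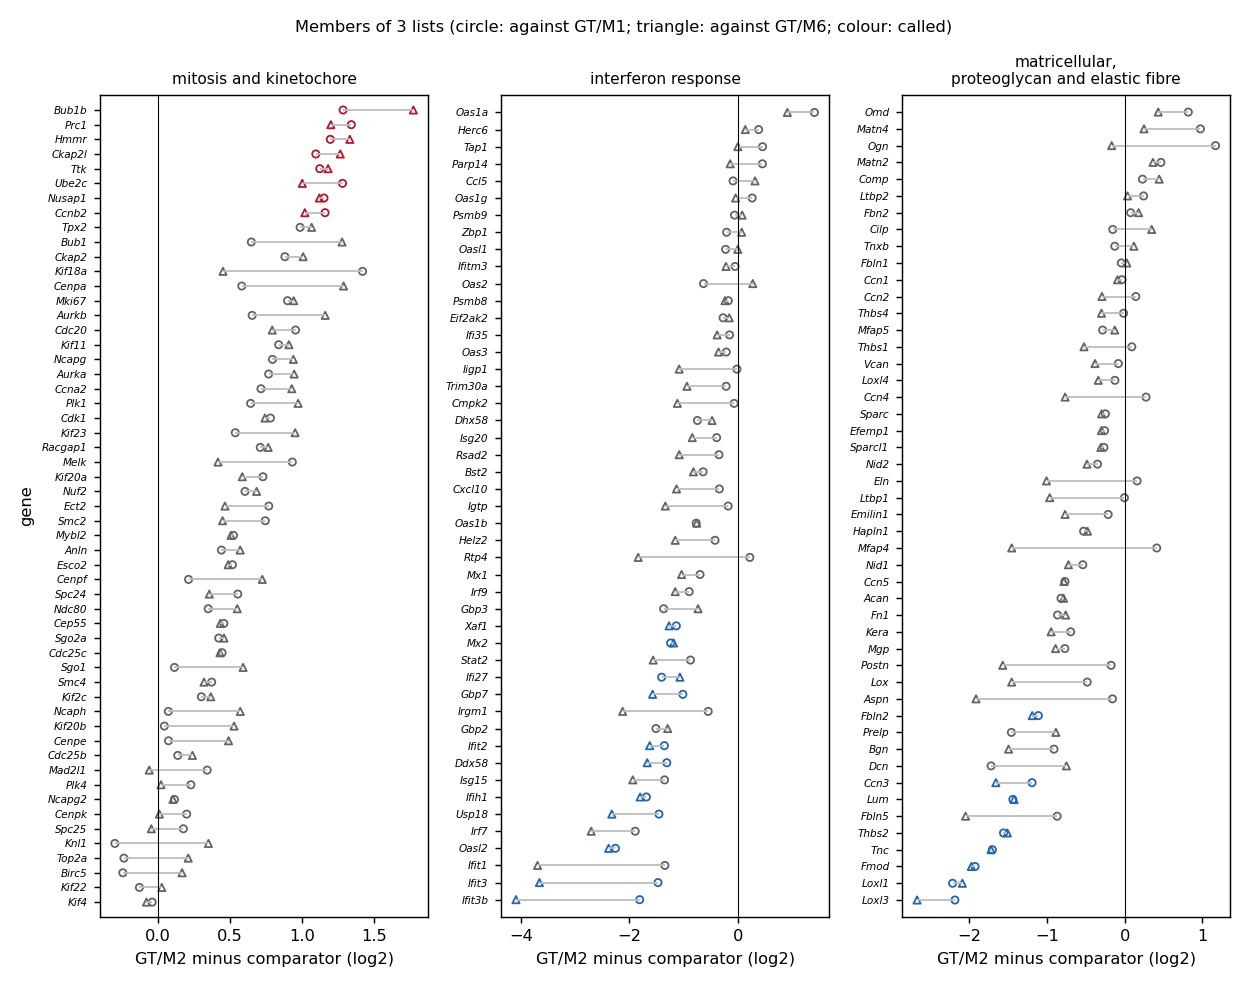
Log2 difference of GT/M2 from GT/M1 (circles) and from GT/M6 (triangles) for each measured member of the mitosis, interferon response and matricellular lists, with called genes in red (higher) or blue (lower) and grey lines joining the values of a gene. Grey genes beyond 1 in both did not reach the signal floor; nearly all mitosis genes lie right of 0, and Ifit3, Ifit3b and Ifit1 lie farther from GT/M6 than from GT/M1.

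Of 42 genes of energy metabolism, 4 were higher (9.52%, against 1.08% of all genes) and 1 lower on GT/M2 (2.38%). The median was 0.12 against GT/M1 and 0.34 against GT/M6. Ppp1r3c, a glycogen-targeting subunit of protein phosphatase, had 15.68 on GT/M2 and 13.59 on both GT/M1 and GT/M6, against 3.40 in MEFs. Eno3, muscle enolase, had 13.11 on GT/M2, 11.55 on GT/M1 and 12.09 on GT/M6. Echs1, a mitochondrial hydratase of fatty acid oxidation, had 10.57 on GT/M2, 9.51 on GT/M1 and 9.53 on GT/M6. The calls of Eno3 and Echs1 were lost with quantile normalization and with centring along the signal range.

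Cpt1b, the muscle carnitine palmitoyltransferase, was 1.99 higher at signals that were not above control. Slc27a1, a fatty acid transporter, had 9.28 on GT/M2, 10.28 on GT/M1 and 10.33 on GT/M6. Skeletal muscle genes had 1 of 38 called, Mustn1, a small nuclear protein of muscle and bone, with 13.46 on GT/M2, 11.47 on GT/M1 and 11.36 on GT/M6. The skeletal list's median was -0.03.

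Of 32 Mef2 partners and regulators, 1 was higher and 1 lower on GT/M2 (3.1% each), and the median was 0.00 to 2 decimals. Vgll3, a cofactor of Tead factors, had 10.55 on GT/M2, 12.19 on GT/M1 and 12.12 on GT/M6, against 14.09 in MEFs. Map2k6, a kinase upstream of p38, was 1.43 higher at signals that were not above control. Ep300, whose product acetylates histones and is a Mef2 coactivator, had 9.90 on GT/M2, 9.96 on GT/M1 and 10.22 on GT/M6.

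GT/M2 was higher for 2 (4.88%) and lower for 3 (7.32%) of 41 chemokines, cytokines and their regulators. Nfkbia, the inhibitor of NF-kappaB, had 10.26 on GT/M2, 8.70 on GT/M1 and 8.16 on GT/M6, and 10.28 in MEFs. Il33, a nuclear cytokine, had 10.68 on GT/M2, 9.16 on GT/M1 and 8.80 on GT/M6. Csf1, the macrophage growth factor, had 13.29 on GT/M2, 15.06 on GT/M1 and 14.61 on GT/M6. Ptgis, prostacyclin synthase, had 8.47 on GT/M2, 9.95 on GT/M1 and 9.76 on GT/M6. Cxcl16 was lower by 1.17 on the log2 scale and not above control on the 3 arrays. Of 20 endothelial genes 0 were called, and of 21 neural genes 1, Stmn2, was lower at signals that were not above control on these arrays.

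The called genes were also read on the other arrays. The median signal of the 211 genes higher on GT/M2 was 8.99 on GT/M2, 7.48 on GT/M1, 7.45 on GT/M6, 8.03 on GT/M2TAD, 7.65 on siEp300, 7.27 on siCtrl and 6.39 in MEFs. The median of the 161 genes lower on GT/M2 was 7.94 on GT/M2, 9.59 on GT/M1, 9.71 on GT/M6, 8.66 on GT/M2TAD, 8.99 on siEp300, 8.78 on siCtrl and 8.17 in MEFs. The order of the first 3 arrays follows from the rule. Since the genes were chosen for lying farthest out on GT/M2, a less extreme median on another array follows in part from that choice, and nothing is read from it.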

How the data were processed

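The deposited table held log2 signals that the authors made with Affymetrix Expression Console 1.4, per the submitters' processing notes, with SST-RMA named as the method in the design text. Its settings and genome build are not given in the sources used here. Of 28846 probe sets, 19572 had 1 gene symbol and none several, all matched by Entrez identifier, and gave 19505 genes. For the 55 genes with several sets, the set with the highest mean was used. With 1 array per group, genes were counted by size (2-fold against both comparators, higher signal at the array's median), with no test. The named genes were the transduced factors, the 15 largest differences each way among called genes above the 95th percentile of control probes (predicted genes left out), called members of 32 gene lists (946 genes, 896 measured) or the largest differences of a list, and the genes at the threshold. Members and lists were chosen with earlier results of these data known. Alternatives changed the scaling, floor, size, comparator, probe-set rule and promoter window. The counting was tested on simulated data. Python 3.11.15, numpy 2.4.6, pandas 2.3.3, statsmodels 0.14.6 and matplotlib 3.10.9 were used.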

Additional observations from a re-analysis of the deposited data

How the results depend on the processing

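With 1 array per group, the number of arrays limits every value, and signals near background can understate differences in transcript. The counts of 211 genes higher and 161 lower on GT/M2 moved by more than 1.5 times under settings that change the rule itself: 114 and 82 with the floor at the control percentile, 732 and 496 at 1.5-fold, 56 and 48 at 3-fold, 370 and 271 against GT/M1 alone, 334 and 360 against GT/M6 alone, and 275 lower against the mean alone (297 higher). Median centring gave 207 and 161, quantile normalization 174 and 192, centring along the signal range 173 and 201, no floor 238 and 194, and the mean of probe sets 211 and 161. In none of these was a called gene called in the opposite direction. Where only the size, floor or comparator changed, the rule itself ensures that. The 30 genes with the largest differences kept their direction in all 150 values under other scalings or a single comparator. The smallest of these differences was 1.47 in size. For a single comparator the direction was fixed in advance, because each gene was called for differing at least 2-fold from both. Of the list medians, the 10 that reached 0.3 in size kept their sign under every scaling, with either comparator alone, with the mean in place of the median and among members at the floor. No paired analysis was possible because each group has 1 array.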

Other observations

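Genes outside the lists also differed, and those given here were chosen after their values were seen. Among genes higher on GT/M2, Nt5e, an ectoenzyme that makes adenosine, had 12.76 on GT/M2, 9.64 on GT/M1 and 11.10 on GT/M6, against 3.52 in MEFs. Scn3b, a sodium channel beta subunit, had 13.70 on GT/M2, 11.14 on GT/M1 and 12.06 on GT/M6. Trim72, a membrane repair protein of striated muscle, had 10.08 on GT/M2, 8.12 on GT/M1 and 8.63 on GT/M6. Insr, the insulin receptor, had 13.87 on GT/M2, 12.44 on GT/M1 and 12.35 on GT/M6. Abcg2, a drug efflux pump, and Myc, a growth-promoting transcription factor, were as high in MEFs as on GT/M2 or higher. Abcg2 had 11.51 on GT/M2, 9.12 on GT/M1, 9.09 on GT/M6 and 12.04 in MEFs. Myc had 15.44 on GT/M2, 14.08 on GT/M1, 13.62 on GT/M6 and 15.53 in MEFs.

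Among genes lower on GT/M2, Gas6, a ligand of Axl family receptors, had 12.63 on GT/M2, 15.02 on GT/M1 and 14.28 on GT/M6, against 9.73 in MEFs. Clic5, an intracellular chloride channel protein, had 10.58 on GT/M2, 12.80 on GT/M1 and 12.79 on GT/M6, against 5.30 in MEFs. Igfbp7, a secreted binding protein of insulin-like growth factors, had 16.06 on GT/M2, 17.11 on GT/M1 and 17.73 on GT/M6. Fscn1, which bundles actin in cell protrusions, had 10.45 on GT/M2, 11.63 on GT/M1 and 12.09 on GT/M6, against 16.03 in MEFs. Akap12, a scaffold of protein kinase A, had 8.33 on GT/M2, 9.74 on GT/M1 and 10.24 on GT/M6, against 14.54 in MEFs. Gas6 and Clic5 were thus above their MEF signal on all 3 transduced arrays, and Fscn1 and Akap12 below it.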
